A study of Mus musculus with 18 samples.

Results

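Expression of 10 epithelial genes was followed by RNA-seq during the differentiation of E14 mouse embryonic stem cells (mESCs): the simple keratins Krt8, Krt18, Krt19 and Krt7, the claudins Cldn3, Cldn4, Cldn6 and Cldn7, occludin (Ocln) and the ZO-1 gene Tjp1. These are 10 of the 20703 genes in the expression table, and all 10 were found there by symbol. They were named with results of these data in view, Krt8 because it carries the largest weight on the main axis of differentiation and Cldn6 because it is lower in Nsd1-deleted cells at day 2. The values of Krt8, those of Cldn6 in comparisons that use day 2, and the day 2 comparison of genotypes for all 10 genes are therefore given as a description with no test.

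E14 is an established mESC line. Wild-type (WT) cells were compared with KO-1 and KO-2, 2 lines in which CRISPR-Cas9 removed exon 5 of both alleles of Nsd1, a gene that encodes a histone H3 lysine 36 methyltransferase. Each KO line was grown from a single cell of mESCs whose Nsd1 already carried a 3×Flag tag, so each is 1 clone; whether the WT libraries came from tagged cells is not given in the sources used here. Cells were kept with LIF, a cytokine that holds mESCs in the stem cell state, and by their labels on a layer of inactivated mouse embryonic fibroblasts (MEFs, the feeder cells), while the methods of the study name gelatin-coated plates as another way of culture. LIF and MEFs were then withdrawn, and RNA was taken at day 0, 2 and 4 in 2 biological replicates of each line, which gives 18 libraries, with 2 WT and 4 KO libraries per day. The replicates are labelled as biological, how their cultures were kept apart is not given in the sources used here, and the p-values measure the spread between these libraries.

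The files hold values of the variance stabilizing transformation (VST), a log2 scale on which genes with few reads are drawn together. The transformation was inverted to counts, given here as normalized counts, which are counts divided by the size factor of the library. Libraries held 9309874 to 23921193 counts on genes, and at day 2 the WT libraries were the shallowest of all, with 9309874 and 9356867. As a check of the labels, Nsd1 had 3517 ± 202 (SD, n = 2) normalized counts in WT and 718 ± 85.4 (SD, n = 4) in KO at day 0, and at each day no KO library reached the lower of the WT libraries; these counts cover the whole gene and not the deleted exon alone. All 12 mESC markers of a list, among them Pou5f1 and Sox2, were above 3 counts in every group, and at day 0 their summed level was 113139 to 115342 normalized counts in WT and 112646 to 116641 in KO.

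Keratins form the intermediate filaments of epithelial cells, and a filament is built from pairs of a type II and a type I chain. Krt8 and Krt7 are type II and Krt18 and Krt19 type I, and Krt8 with Krt18 is the pair of simple, single-layered epithelia and among the earliest keratins of the mouse embryo. Claudins and occludin span the membrane at tight junctions and seal the space between neighbouring epithelial cells, while ZO-1, the product of Tjp1, ties them to actin from inside the cell. Cldn6 is known as a claudin of embryonic epithelium that is also made by pluripotent cells. In bulk RNA, fewer cells that express a gene and less of its RNA per cell cannot be told apart.

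In WT cells the 4 keratins ended the course far above where they began, and at day 4 all 4 were lower in KO cells, to a degree that differed from gene to gene. Krt8 stood at 14.1% of its WT level, Krt18 at 22.3%, Krt7 at 6.56% and Krt19 at 1.18%. Among the claudins, the WT means of Cldn6 and Cldn7 were higher by day 2 and that of Cldn4 was higher at day 4 after a lower day 2, and all 3 were lower in KO at day 4. Ocln had its highest WT level at day 2, and the KO mean of Tjp1 stayed between 66.8% (day 4) and 107% (day 2) of WT.

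**Figure D1:**
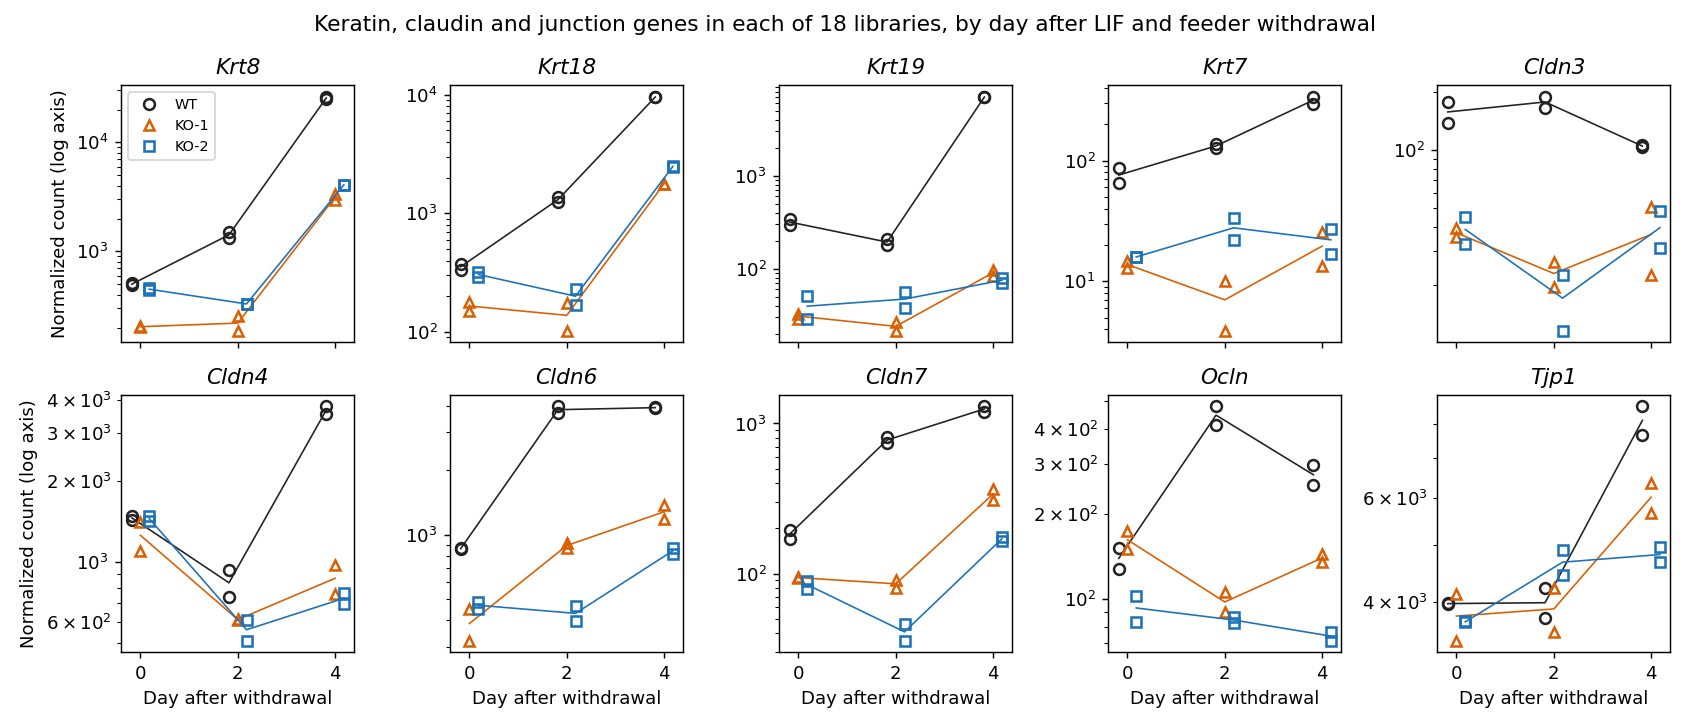
Normalized counts (log axis, with its own range in each panel) of the 10 genes at day 0, 2 and 4, with 1 symbol per library and lines through the mean of the 2 libraries of a line. The WT circles lie above all KO symbols at day 4 in every panel, while Cldn4, Ocln and Tjp1 overlap at day 0.

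The promoters of 4 genes are shown because these genes carry the main values: the neighbouring pair Krt8 and Krt18, Cldn6, which was chosen for its day 2 values, and Cldn4, whose WT course differs from that of Cldn6. Each line gives the 250 bases before the start site of a RefSeq transcript on GRCm38.p6, 5′ to 3′ on the strand of the gene, in the order of the lines at chr15:102004343-102004592 (minus strand), chr15:102027966-102028215 (plus), chr17:23679115-23679364 (plus) and chr5:134946935-134947184 (minus). Capitals mark CACCTG or its reverse complement CAGGTG, the E-box bound by factors of the Snail and Zeb families, and TGANTCA, the AP-1 motif.
Krt8: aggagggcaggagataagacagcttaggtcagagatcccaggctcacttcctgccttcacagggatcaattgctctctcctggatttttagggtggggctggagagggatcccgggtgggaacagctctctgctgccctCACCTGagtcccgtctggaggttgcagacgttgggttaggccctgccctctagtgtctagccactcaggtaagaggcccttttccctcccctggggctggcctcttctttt
Krt18: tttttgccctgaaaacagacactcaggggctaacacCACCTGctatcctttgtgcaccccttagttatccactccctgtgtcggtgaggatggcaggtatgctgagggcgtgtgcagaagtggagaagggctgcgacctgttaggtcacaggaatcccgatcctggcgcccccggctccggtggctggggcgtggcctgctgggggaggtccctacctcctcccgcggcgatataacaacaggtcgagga
Cldn6: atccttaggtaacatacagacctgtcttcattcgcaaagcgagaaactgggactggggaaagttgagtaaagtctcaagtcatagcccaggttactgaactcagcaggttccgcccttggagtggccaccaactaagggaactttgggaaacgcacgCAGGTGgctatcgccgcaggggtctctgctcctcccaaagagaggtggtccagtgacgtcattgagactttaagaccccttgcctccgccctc
Cldn4: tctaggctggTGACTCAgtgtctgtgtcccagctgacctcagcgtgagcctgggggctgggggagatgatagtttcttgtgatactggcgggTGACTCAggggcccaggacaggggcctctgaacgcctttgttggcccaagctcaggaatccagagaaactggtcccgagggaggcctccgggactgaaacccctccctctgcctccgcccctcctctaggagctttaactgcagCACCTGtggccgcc

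Krt7 lies on chromosome 15 as well, Krt19 and Cldn7 on chromosome 11, Cldn3 and Cldn4 on chromosome 5, Ocln on chromosome 13 and Tjp1 on chromosome 7. RefSeq windows of 300 bases, 250 before and 50 after a start, matched 9 of the 10 genes, all but Krt19, with 11 windows. CACCTG or CAGGTG stood in 9 of the 11 windows, which belong to 8 genes, all of the 9 but Tjp1, against 20.2% of the 32851 windows of all genes. TATAAA, searched on both strands as the other motifs were, was found for Krt8 alone (13.6% of all windows), where it spans the start site, TGANTCA for Cldn4 alone (7.81%), where it occurs at 240 and 158 bases before the start, and AACCNGTT, the motif of the Grainyhead family, for none of the 9 (2.09%). The motifs were chosen after results and sequences had been seen, the 2 windows of Ocln overlap, and a match of letters is a description and not a binding site.

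Krt8 was the gene with the largest weight of the 500 on PC1, the component that held 57.5% of the variance, which is how it was chosen. In the WT libraries it had 509.9 and 491 normalized counts at day 0, 1506 and 1334 at day 2 and 26277 and 24930.4 at day 4. In KO-1 it had 202 and 205 at day 0, 187 and 253 at day 2 and 2964 and 3328 at day 4. In KO-2 it had 440.1 and 461, 331 and 329 and 4048 and 4101 at the same days. The WT mean went up by 2.84-fold and then by 18.03-fold, whereas the KO mean was flat to day 2 and went up by 13.1-fold only afterwards. At day 0 KO-2 lay just under WT and KO-1 at 45.3% of KO-2, and at every day no KO library reached a WT library. The pseudogene Krt8-ps, whose reads cannot be told with certainty from those of Krt8, had 118 ± 10.8 (SD, n = 2) normalized counts in WT at day 4, a small share of the count of Krt8.

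Krt18, the type I partner of Krt8, lies beside it on chromosome 15 and moved with it. Its normalized counts in WT were 332 and 377 at day 0, 1238 and 1373 at day 2 and 9510.4 and 9638 at day 4. In KO-1 they were 151 and 180.1, 102 and 174 and 1780.4 and 1777, and in KO-2 290.1 and 321, 169 and 232 and 2469 and 2509. As for Krt8, all KO libraries lay below WT at each day, narrowly for KO-2 at day 0 and widely later. The transcript rose in WT from day 0 to day 2 (log2 fold change 1.10, SE 0.14, adjusted p = 3.12e-06, by limma after Benjamini-Hochberg correction) and again to day 4 (log2 fold change 2.42, SE 0.14, adjusted p = 2.08e-11). In KO the step to day 2 was not called (log2 fold change −0.17, SE 0.10, adjusted p = 0.211), and Krt18 rose from day 2 to day 4 (log2 fold change 2.05, SE 0.10, adjusted p = 1.10e-11). At day 0 the difference between genotypes was not called (log2 fold change −0.27, SE 0.12, adjusted p = 0.113), and at day 4 Krt18 was lower in KO (log2 fold change −1.91, SE 0.12, adjusted p = 6.96e-11). The ratio of Krt8 to Krt18 counts, not scaled by length and not tested, was 1.30 to 1.54 in WT and 1.14 to 1.52 in KO at day 0, 0.972 to 1.22 in WT and 1.418 to 1.96 in KO at day 2, and 2.59 to 2.76 in WT and 1.63 to 1.87 in KO at day 4, so it was the higher of the genotypes in KO at day 2 and in WT at day 4.

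Krt19, a type I keratin able to pair with Krt8, was the gene of the 10 with the largest fold between genotypes at day 0 and at day 4. WT libraries held 339 and 296 normalized counts at day 0, 209 and 178 at day 2 and 7109 and 6967 at day 4. KO-1 held 28.9 and 32.7, 21.5 and 26.4 and 83.4 and 97.4, and KO-2 28.4 and 50.5, 56.2 and 37.9 and 79.8 and 70.2. No KO library at any day came up to the lowest WT value, and the KO libraries of day 4 were still below WT at day 0. Krt19 was already lower in KO in the stem cell state, by 9.04-fold (log2 fold change −0.90, SE 0.06, adjusted p = 7.28e-10, limma). At day 4 the difference was 85.1-fold (log2 fold change −3.83, SE 0.06, adjusted p = 1.27e-20). WT cells raised Krt19 by 36.4-fold between day 2 and day 4 (log2 fold change 3.47, SE 0.069, adjusted p = 6.25e-19), while the KO mean went from 35.5 to 82.7, 2.33-fold, with a log2 fold change of 0.25 on the VST scale that misses the fold threshold and 1.27 with limma-voom, which passes (adjusted p = 0.00051).

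**Figure D2:**
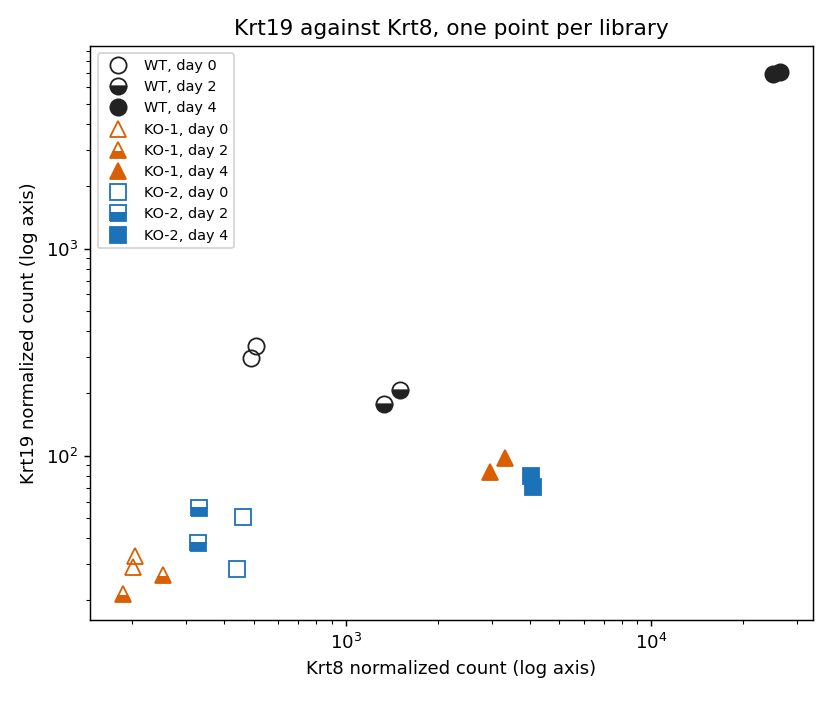
Krt19 against Krt8 in normalized counts on log axes, with 1 point per library, shape and colour for the line and fill for the day. The 2 WT libraries of day 4 sit at the top right, and the 4 KO libraries of day 4 have 2964 to 4101 normalized counts of Krt8 but at most 97.4 of Krt19.

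The plot of Krt19 against Krt8 shows that the keratins did not move in proportion. The ratio of Krt8 to Krt19 counts, which was not tested, was 1.505 to 1.66 in WT and 6.28 to 15.5 in KO at day 0, 7.22 to 7.48 in WT and 5.89 to 9.58 in KO at day 2, and 3.58 to 3.70 in WT and 34.2 to 58.4 in KO at day 4. The genotypes thus stood apart in this ratio at day 0 and day 4 and overlapped at day 2. The log2 change of Krt19 from day 0 to day 4 in KO minus that in WT was −2.93 (SE 0.084, adjusted p = 6.56e-16, interaction contrast of limma), and that of Krt18 was −1.64 (SE 0.17, adjusted p = 3.20e-07). Krt8 had −2.31 in the same contrast, given as a description.

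Krt7, a type II keratin of ductal and other simple epithelia, was the least abundant of the 4. Its normalized counts in WT were 87.2 and 64.7 at day 0, 127 and 138 at day 2 and 296 and 339 at day 4. No KO library exceeded 33.7 at any day, and the lowest, in KO-1 at day 2, had 3.90. At day 4 Krt7 was lower in KO by 15.2-fold (log2 fold change −1.01, SE 0.063, adjusted p = 4.72e-11, limma). At day 0 the 4 KO libraries also lay below WT and the difference had an adjusted p of 0.000108, but its VST log2 fold change of −0.38 stayed short of the fold threshold, which limma-voom passed with −2.34 (adjusted p = 0.000235).

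Cldn6 reached its WT plateau by day 2. The WT libraries had 868 and 855 normalized counts at day 0, 3965 and 3692 at day 2 and 3938 and 3887 at day 4. KO-1 had 321 and 450.2, 917 and 864 and 1184 and 1375, and KO-2 had 449.8 and 488, 466 and 394 and 871 and 812. All KO libraries were below WT at each day, KO-1 climbed by day 2 and KO-2 did not. At day 2, the comparison by which it was chosen, the KO mean was 17.24% of WT. At day 4 Cldn6 was lower in KO (log2 fold change −1.48, SE 0.16, adjusted p = 1.29e-07, limma), and at day 0 the difference of −0.57 (SE 0.16, adjusted p = 0.00802) ended just short of the fold threshold on the VST scale and was past it with limma-voom, at −0.996 (adjusted p = 0.00965). Its neighbour on chromosome 17, Cldn9, did not share this course, with 53.6 normalized counts in WT and 34.7 in KO at day 2.

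Cldn7, another claudin of simple epithelia, rose in WT by day 2, and from day 2 to day 4 it had a log2 fold change of 0.45 (adjusted p = 0.00324, limma), under the fold threshold. The WT libraries held 171 and 196 normalized counts at day 0, 808 and 742 at day 2 and 1200.5 and 1299 at day 4, and the gene rose from day 0 to day 2 (log2 fold change 0.99, SE 0.11, adjusted p = 8.01e-07, limma). In KO-1 the values were 93.1 and 94.96, 90.7 and 80.3 and 310.1 and 368, and in KO-2 78.96 and 89.8, 46.03 and 35.8 and 166 and 175. Day 2 was the day of its widest gap in fold, with the KO mean at 8.15% of WT and no overlap between genotypes. At day 4 Cldn7 was lower in KO (log2 fold change −1.28, SE 0.10, adjusted p = 1.27e-09), although it had risen there since day 2 (log2 fold change 0.60, SE 0.081, adjusted p = 1.17e-05), a rise that falls under the fold threshold when any of the libraries KO-1 day 4 replicate 1 (0.55) or 2 (0.51) or KO-2 day 2 replicate 1 (0.57) or 2 (0.55) is left out.

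Cldn4 had a course of its own. WT libraries held 1483 and 1433 normalized counts at day 0, 932 and 739 at day 2 and 3551 and 3775 at day 4. KO-1 held 1098 and 1409.6, 612 and 608 and 762 and 974, and KO-2 1475 and 1420.2, 609 and 510 and 769 and 695. The genotypes overlapped at day 0, were close at day 2 and lay far apart at day 4. No difference between genotypes was called at day 0 (log2 fold change −0.08, SE 0.086, adjusted p = 0.515, limma). Cldn4 fell in KO from day 0 to day 2 (log2 fold change −0.76, SE 0.07, adjusted p = 3.14e-08); in WT the same step was −0.55 (adjusted p = 0.000175), short of the fold threshold on the VST scale and past it with limma-voom (−0.81, adjusted p = 0.000506). From day 2 to day 4 Cldn4 then rose in WT by 4.38-fold (log2 fold change 1.60, SE 0.10, adjusted p = 5.42e-11), while the KO mean at day 4 was 1.37-fold that of day 2 (log2 fold change 0.26, not called). At day 4 it was lower in KO (log2 fold change −1.64, SE 0.086, adjusted p = 2.84e-12).

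Cldn3, which lies beside Cldn4 on chromosome 5, was low throughout and did not take part in the WT rise. Its WT libraries held 178 and 138 normalized counts at day 0, 166 and 189.6 at day 2 and 107 and 104 at day 4, and between 11.6 and 50.6 in the KO libraries. KO libraries were below WT at every day. The difference had adjusted p-values of 8.74e-07 at day 0 and 6.67e-05 at day 4 in limma, with VST log2 fold changes of −0.49 and −0.32 that are short of the fold threshold; with limma-voom they were −2.07 and −1.43 and passed.

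Ocln peaked in WT at day 2. Its WT values were 127 and 151 normalized counts at day 0, 414 and 479.8 at day 2 and 254 and 297 at day 4, and it rose to day 2 (log2 fold change 0.68, SE 0.094, adjusted p = 8.40e-06, limma). KO-1 had 173 and 151, 89.7 and 106 and 144 and 135, and KO-2 103 and 83.2, 86.6 and 82.2 and 71.4 and 76.6. At day 0 the WT values lay within the range of KO, between KO-2 and the upper KO-1 library, and at day 2 every KO library was below the WT libraries. At day 4 the difference was −0.48 (SE 0.082, adjusted p = 7.57e-05), below the fold threshold on the VST scale and past it with limma-voom (−1.46, adjusted p = 2.16e-05).

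Tjp1, the ZO-1 gene, had the smallest folds of normalized counts between genotypes at day 2 and day 4, whereas on the VST scale the day 4 differences of Cldn3 and Ocln, which have fewer counts, were smaller. WT libraries had 3989 and 3962 normalized counts at day 0, 3758 and 4221 at day 2 and 8553 and 7651 at day 4, and the rise to day 4 passed the test (log2 fold change 0.92, SE 0.12, adjusted p = 3.46e-06, limma). The KO libraries ranged from 3444 to 4131 at day 0, from 3558 to 4888 at day 2 and from 4671 to 6364 at day 4. The genotypes overlapped at day 0 and day 2, and all KO libraries were below WT at day 4, where the log2 difference was −0.54 (SE 0.11, adjusted p = 0.000318), which is under the fold threshold; limma-voom gave −0.59 and passed.

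Counted together without Krt8, which stands as a description, 1 of the other 9 genes was called lower in KO at day 0 (Krt19), against 0.879% of all 20703 genes called lower and 1.73% called higher, where a call needs an adjusted p below 0.01 together with a log2 fold change beyond 0.58 in either direction in limma. At day 4, 6 of these 9 were called lower, all but Cldn3, Ocln and Tjp1, against 3.91% of all genes lower and 3.67% higher. These counts are not independent of PC1, the axis that chose Krt8. By weight on it, Krt18 ranked 10, Krt19 31, Cldn6 119, Cldn7 239 and Cldn4 431 of the 500 genes. At day 2, which is described with no test, 8 of the 10 log2 fold changes lay below −0.58, all but those of Cldn4 and Tjp1; of all genes 2.37% were called lower and 4.01% higher, and nothing is read from this, since Cldn6 was chosen on this comparison. None of the 9 was called higher in KO at day 0 or day 4. With limma-voom on the recovered counts, 4 of the 9 (Krt19, Krt7, Cldn3 and Cldn6) were called lower at day 0 and 9 of 9 at day 4, against 6.86% and 13% of all genes; at day 2 it called 13.6% of all genes lower. At day 2 the median of all genes in that fit was −0.14 and not 0. As a description with Krt8 included, on the VST scale the 10 genes had median log2 fold changes of −0.32, −0.77 and −1.38 at day 0, 2 and 4, where all genes had −0.0032, −0.016 and 0. As a description of day 2, the KO means of the other genes stood at 12.95% (Krt18), 13.1% (Krt7), 11.3% (Cldn3), 18.4% (Krt19), 19.4% (Krt8), 20.4% (Ocln), 69.97% (Cldn4) and 107% (Tjp1) of WT.

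**Figure D3:**
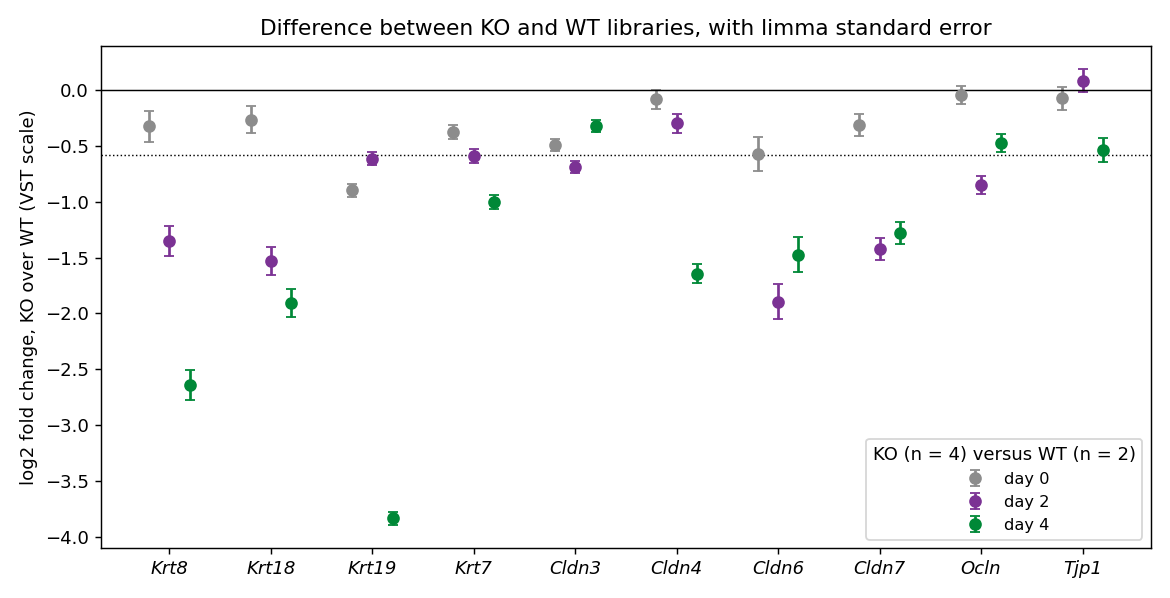
log2 fold change of KO (n = 4) over WT (n = 2) on the VST scale for each gene at day 0, 2 and 4, with the standard error from limma as bars and the fold threshold of 0.58 as a dotted line. Krt19 at day 4 is the lowest point at −3.83, and Tjp1 at day 2 is the only point above 0.

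Groups did not overlap, with every KO library under the WT pair, for 7 of the 10 genes at day 0 (not Cldn4, Ocln and Tjp1), for 9 at day 2 (not Tjp1) and for all 10 at day 4, which for Krt8 and for day 2 is a description. Among all genes the same was true of 24.3%, 31.4% and 25.9%. Per gene, an exact permutation test of 4 libraries against 2 cannot give a p below 0.0667. That limit is for every KO library under the WT pair, and it is higher when the reverse order is counted too. Such a test would also treat the libraries as exchangeable, although they are replicates of the WT line and of 2 KO clones.

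Over time, Krt8 is left out of the counts, and Cldn6 too where day 2 enters. In WT, 3 of the other 8 genes were called higher at day 2 than at day 0 (Krt18, Cldn7 and Ocln; background 2.66% higher and 4.02% lower) and 4 were called higher at day 4 than at day 2 (Krt18, Krt19, Cldn4 and Tjp1; background 5.69% and 3.07%), so that in limma, of these 8, only Krt18 was called in both steps. With limma-voom Cldn4 was also called in both, lower at day 2 (background 10% lower) and then higher, and Krt7 was a further call at day 4 (log2 fold change 1.27, adjusted p = 0.00065; background 12.2% higher); the median of all genes in that step was −0.17. In KO, Cldn4 alone of the 8 was called between day 0 and day 2, lower (background 1.77% lower and 1.43% higher), and 2 rose from day 2 to day 4 (Krt18 and Cldn7; background 0.923% higher and 0.565% lower), with Krt19 as a further call by limma-voom (background 5.59% higher). The change from day 0 to day 4 was lower in KO than in WT for 6 of the 9 genes other than Krt8 (all but Cldn3, Ocln and Tjp1; background 4.13% lower and 2.81% higher). With limma-voom (background 8.01% lower) this held for 3 of them, Krt18, Krt19 and Cldn4, while Krt7 (adjusted p = 0.0251), Cldn6 (0.0559) and Cldn7 (0.0141) missed the threshold. Cldn6 also missed it on the VST scale without either WT library of day 0 or of day 4 (adjusted p of 0.0177 to 0.0227 in limma), and Krt7 without WT day 0 replicate 2 (log2 difference −0.58).

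Levels of different genes were compared per kb of exon. In WT at day 0 the highest was Cldn4 with 803 ± 19.4 normalized counts per kb (SD, n = 2), followed by Tjp1 (509 ± 2.41), Cldn6 (500.5 ± 5.53), Krt8 (255 ± 6.98) and Krt18 (247 ± 22.1), of which Krt8 and Krt18 do not differ beyond their spread. At day 2 Cldn6 led with 2225 ± 112, and at day 4 Krt8 with 13076 ± 486, followed by Krt18 (6663 ± 62.7), Krt19 (3794 ± 54.3), Cldn6 (2273 ± 20.8) and Cldn4 (2017 ± 86.97). The lowest at day 4 were Cldn3 (83.5 ± 1.75), Ocln (65.2 ± 7.23) and Krt7 (45.04 ± 4.34), and the order of Ocln and Krt7 turned when the length of the longest transcript was used (67.9 and 77.5). In KO at day 4 Krt8 (1844 ± 284 per kb, SD, n = 4) and Krt18 (1485 ± 286) were also the highest but within their spread of each other, as were Tjp1 (693 ± 97.2) and Cldn6 (616 ± 154), and Krt19 came after Cldn7, with 44.6 ± 6.08.

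The clones were compared with each other because each is a single line. At day 0 none of the 9 genes other than Krt8 was called between clones in limma (background 0.029% of all genes in either direction), with 2 at an unadjusted p under 0.05 and 0 called by limma-voom (background 0.159%). No share of all genes at an unadjusted p under 0.05 is given between clones, so nothing is read from the counts at that cut-off. At day 2 Cldn6, whose KO values of that day chose it and which is therefore described with no test, had 917 and 864 normalized counts in KO-1 and 466 and 394 in KO-2, with no overlap of the clones. Of the 8 genes other than Krt8 and Cldn6, 0 were called at day 2 (background 0.0435%), with 5 at an unadjusted p under 0.05 and 0 called by limma-voom (background 0.232%). At day 4, 0 of the 9 were called (background 0.251%), with 5 at an unadjusted p under 0.05 and 3 (Cldn6, Cldn7 and Ocln, each higher in KO-1) called by limma-voom (background 2.23%). The means of Krt8 and Krt18 lay the other way at each day, lower in KO-1, and at day 4 Krt18 stood at 71.5% of KO-2 (log2 difference −0.38, adjusted p = 0.00197, limma), under the fold threshold.

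The genes whose pattern over the 18 libraries was most like Krt8, among 10228 genes with a mean of at least 100 normalized counts, were Krt18 (Pearson r = 0.993), Wls (0.982), Cald1 (0.981), Acta1 (0.981) and Clic1 (0.975). Wls carries Wnt proteins to the cell surface, Cald1 and Acta1 encode caldesmon and skeletal muscle actin, and Clic1 encodes an intracellular chloride channel. Acta1, for example, had 66.6 normalized counts in WT at day 2, 1745 in WT at day 4 and 428 in KO at day 4. For Cldn6 the 5 were Lratd2 (0.968), Capg (0.967), Tmem250-ps (0.966), Cldn7 (0.960) and Lhpp (0.960), of which Capg encodes an actin capping protein. By Spearman rank, 2 of the 5 for Krt8 and 0 of the 5 for Cldn6 were the same genes. These values describe 18 libraries that share cells, days and lines, and Krt8 and Cldn6 were 0.716 alike.

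For the lists of related genes that follow, the shares of all genes called in KO versus WT at day 0, 2 and 4 were 1.73%, 4.01% and 3.67% higher and 0.879%, 2.37% and 3.91% lower in limma, and 6.43%, 10.3% and 10.9% higher and 6.86%, 13.6% and 13% lower in limma-voom. Beside those shares, a count of 0 or 1 in limma in lists of this size, or of 2 of 36 genes higher at day 2, is not read as a result. At an adjusted p under 0.05 with no fold threshold, limma called 3172, 4504 and 3725 of all 20703 genes higher at day 0, 2 and 4. It called 2977, 5011 and 3975 lower. An unadjusted p under 0.05 takes in at least as many genes, so nothing is read from list counts at that cut-off. Of 14 other keratins measured, 0 were called at any day in limma (8, 6 and 7 had an unadjusted p under 0.05 at day 0, 2 and 4; limma-voom called 1 higher and 3 lower at day 0, 3 lower at day 2 and 1 higher and 5 lower at day 4). The most abundant over all 18 libraries, which is how abundance is ranked in each list here, was Krt42, with 214 ± 9.48 normalized counts in WT and 401 ± 47.6 in KO at day 0 but 5.30 ± 3.22 and 20.6 ± 4.80 at day 4. At day 4, 3 of the 14 in WT and 7 in KO were at 3 counts or fewer in every library. Of 14 other claudins measured, the only one called was Cldnd1, a claudin domain gene, lower at day 4 (1567 ± 46.95 normalized counts in WT and 740 ± 87.8 in KO; log2 fold change −0.73, adjusted p = 3.61e-09, limma), while limma-voom called 0 higher and 1 lower at day 0, 1 and 2 at day 2 and 2 and 3 at day 4, and 6 and 8 had an unadjusted p under 0.05 in limma at day 0 and day 2. The most abundant, Cldn12, had 1586 ± 4.05 and 1163 ± 88.9 at day 4 and was not called. Median log2 fold changes at day 4 were −0.09 and −0.02.

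Partners of the claudins at tight junctions, 36 measured genes for adhesion proteins, scaffolds and polarity proteins, had 0 calls at day 0 in limma (17 had an unadjusted p under 0.05; limma-voom called 3 higher and 2 lower), 2 higher and 4 lower at day 2, and 1 higher and 11 lower at day 4. On the VST scale the largest differences downward at day 2 were in Crb3, a polarity protein (488 ± 29.4 normalized counts in WT and 46.01 ± 28.5 in KO), Marveld3, a relative of occludin (358 ± 8.25 and 24.4 ± 7.04), and Tjp3, which encodes ZO-3 (379 ± 8.91 and 109 ± 43.3). At day 4 the largest on that scale were in Amot (10911 ± 919 and 2334 ± 139) and Amotl2 (12161 ± 449 and 3929 ± 220.2), which encode angiomotins, and in the cingulin gene Cgn (3361 ± 54.3 and 1216 ± 202). Crb3 (460 ± 29.3 and 75.6 ± 34.2) and Marveld3 (190 ± 2.15 and 39.1 ± 20.1) were lower at day 4 as well, with larger folds of normalized counts than these genes. Jam2, a junctional adhesion molecule, went the other way at both days, with 19.7 ± 6.36 in WT and 396 ± 58.9 in KO at day 4 (log2 fold change 1.16, adjusted p = 3.35e-12, limma), as did Cgnl1 at day 2. Ybx3, the most abundant over all libraries though below Amot and Amotl2 in WT at day 4, was not called at any day. With limma-voom 4 were higher and 10 lower at day 2, and 2 and 16 at day 4. With KO-1 alone against WT, Tjp3 at day 2 (log2 fold change −0.55) and Marveld3 at day 4 (−0.49) did not reach the fold threshold in limma, and neither did Marveld3 at day 4 without KO-2 replicate 2 (−0.53).

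Desmosomes, to which keratin filaments attach, and adherens junctions were covered by 24 genes, of which 1, 1 and 1 were called higher and 2, 6 and 11 lower at day 0, 2 and 4 in limma. Dsp, whose product desmoplakin anchors keratin filaments, was lower at all 3 days, with 1179 ± 3.44 normalized counts in WT and 304 ± 55.4 in KO at day 0 and 11811 ± 1105 and 1656 ± 411 at day 4 (log2 fold change −2.48, adjusted p = 5.99e-13, limma). Of other desmosome genes, Dsc2 (956 ± 59.1 and 77.03 ± 13.2) and Perp (2459 ± 74.98 and 585 ± 9.94) were lower at day 4, and Ppl and the adhesion gene Epcam at day 2 (4204 ± 83.7 and 1619 ± 231 for Epcam). Nectin1 was lower at day 0. Higher in KO were Cdh3, the P-cadherin gene, at day 0 (506 ± 27.4 and 1844 ± 92.1) and day 4, and Jup, the plakoglobin gene, at day 2, which was lower at day 4, while Ctnnb1, the most abundant over all libraries though below Dsp in WT at day 4, was not called. With limma-voom 2, 2 and 3 were higher and 5, 12 and 17 lower at day 0, 2 and 4. The call of Cdh3 at day 4 lay at the fold threshold (log2 fold change 0.58, limma) and was lost with KO-2 alone (0.53), where 0 genes of the list were called higher, and without KO-1 replicate 1, KO-1 replicate 2 or WT replicate 1 (0.56 to 0.57). At day 2, 2 were called higher with KO-1 alone, and Jup was not called without WT replicate 2 (0.57). Nectin1 at day 0 was not called without WT replicate 2 (−0.58). The medians of the list were −0.15, −0.29 and −0.54 on the log2 scale.

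**Figure D4:**
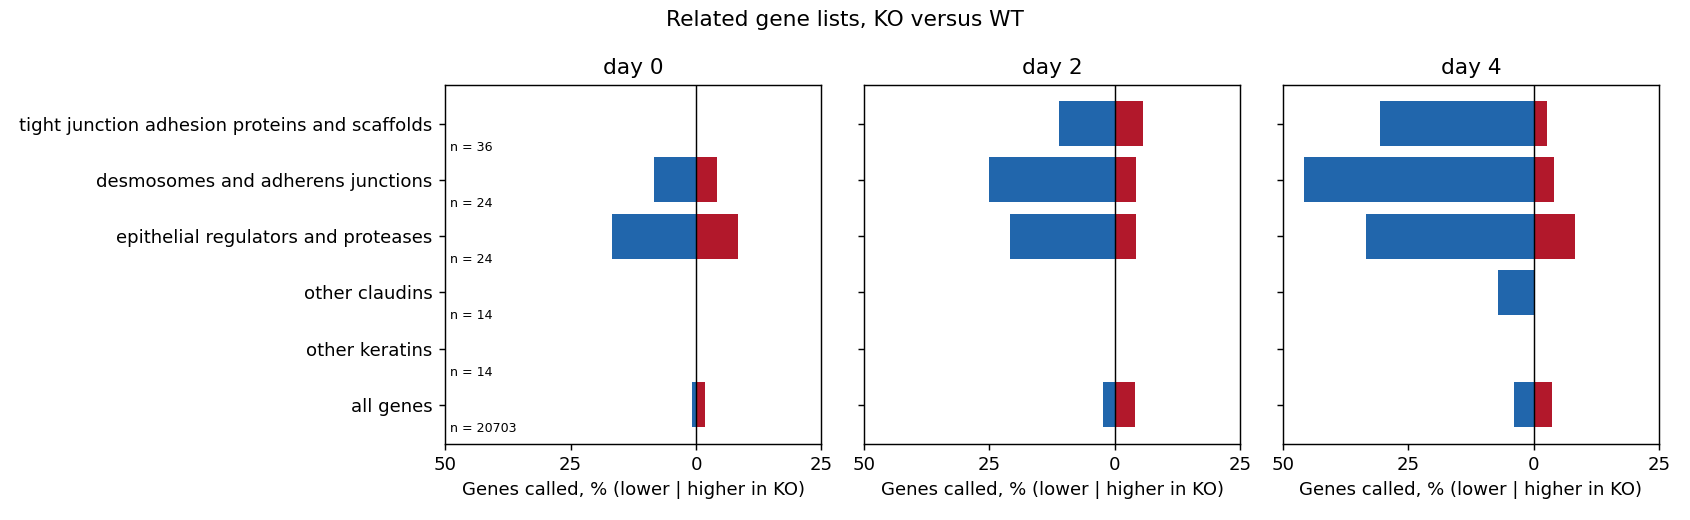
Share of the measured genes of 5 related lists, and of all genes, called lower (left) and higher (right) in KO at day 0, 2 and 4 in limma, in percent. The bars to the left lengthen with the day for all genes, from 0.879% to 3.91%, as for the epithelial, desmosome and tight junction lists, where they reach 8 of 24, 11 of 24 and 11 of 36 genes at day 4, and stay at 0 for other keratins.

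Among 24 regulators and proteases of epithelia, 2, 1 and 2 were called higher and 4, 5 and 8 lower at day 0, 2 and 4 in limma. Grhl2, a Grainyhead factor known to act on claudin and cadherin genes, was lower at day 0 (500.1 ± 17.5 normalized counts in WT and 80.9 ± 36.2 in KO) and day 2 and had 462 ± 38.6 and 402 ± 194 at day 4, with an adjusted p of 0.576 in limma. Elf3, an epithelial ETS factor, was lower at day 0 (1004 ± 28.9 and 239 ± 26.1) and at day 4. Ap1m2, the epithelial adaptor subunit that sorts membrane proteins, was lower at all 3 days, most at day 2 (914 ± 29.9 and 38.7 ± 26.7), and so was the protease inhibitor Spint2, with 3170.2 ± 172 and 985 ± 173 at day 2. At day 4 the matriptase gene St14 was lower (4851 ± 70.7 and 1454 ± 287). Esrp1, an epithelial splicing factor, was higher in KO at day 0 and day 4, Grhl1 at day 0 and Tfap2c at day 2 and day 4 (80.4 ± 5.44 and 787 ± 74.01 at day 2). Itga6, the most abundant over all libraries though below Spint2 in WT at day 2 and St14 in WT at day 4, was not called. With limma-voom 5, 4 and 4 were higher and 7, 9 and 10 lower at the 3 days. With KO-2 alone 2 were higher at day 2 and 1 at day 4, where Esrp1 was lost (log2 fold change 0.56), with KO-1 alone Elf3 was not called at day 4 (−0.50), and without KO-1 replicate 1 Spint2 was not called at day 0 (−0.58).

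In a list of 18 other intermediate filament genes and factors of the epithelial to mesenchymal transition, 4, 5 and 3 genes were called higher and 0, 2 and 6 lower in limma, and 4, 7 and 3 higher and 2, 4 and 11 lower in limma-voom; at day 0, 5 were lower at an unadjusted p under 0.05. With KO-2 alone 2 of the 4 higher calls of day 0 were lost, Nes (log2 fold change 0.57) and Zeb1 (0.52); Nes was also lost without WT replicate 1 (adjusted p = 0.0315, limma) and Zeb1 without KO-1 replicate 1 (log2 fold change 0.55). Zeb1, which represses epithelial genes, was higher in KO at all 3 days, among them day 2 (29.3 ± 0.111 normalized counts in WT and 865 ± 187 in KO) and day 4 (125 ± 0.169 and 604 ± 75.4). Snai1, another such repressor, was lower at day 4 (1325 ± 33.3 and 145 ± 26.5), so at day 4 the pair differed in opposite directions. The N-cadherin gene Cdh2 was higher at day 0 (93.8 ± 8.52 and 1018 ± 104) and day 2 and lower at day 4 (6457 ± 318 and 3577 ± 317). Of the filament genes, Ina was higher at all 3 days and Synm at day 4, Nes was higher at day 0 and lower at day 2 and day 4, and Des was lower at day 2. Vim, the filament gene of mesenchymal cells, was higher in KO at day 2 (1672 ± 64.9 and 3499 ± 226) and lower at day 4 (20061 ± 1205 and 4873 ± 1019). Fn1, the most abundant over all libraries, was higher in KO at day 2 (3838 ± 505 and 17338 ± 1516) and lower at day 4 (51593 ± 3645 and 8163 ± 666).

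Markers of other cell types moved beside the keratins and claudins, and their part in these results was not tested. Feeder fibroblast markers (14 measured, most abundant Col5a1 over all libraries but Col1a1 at day 0, with 1482 ± 15.8 in WT and 2732 ± 290.3 in KO) summed to 4707 to 4769.5 normalized counts in WT and 6898 to 8032 in KO at day 0, with 3 called higher (Col1a1, Col3a1 and Col1a2) and 1 lower (Pdgfrb). With KO-1 alone 1 was called higher, as Col1a1 (log2 fold change 0.57) and Col1a2 (0.56) did not reach the fold threshold; Col1a1 was also lost without either WT library (adjusted p of 0.0137 and 0.0152, limma) and Col1a2 without KO-2 replicate 2 (0.57). At day 2 they summed to 1535 to 1726 and 1264 to 1563, with Thy1 lower, and at day 4 to 12279.6 to 12824 and 2557 to 4302, with 3 lower (Col5a1, Pdgfrb and Col1a1); limma-voom called 5, 0 and 0 higher and 1, 2 and 6 lower at the 3 days, and with KO-2 alone 1 was higher at day 4. After the withdrawal of MEFs, Col5a1 alone had 8992 and 8556 normalized counts in the WT libraries of day 4. Which cells express the list at day 4 was not tested. Lum was at 3 counts or fewer in every library of day 0, and Dcn in WT at day 0. Of 12 mESC markers, 0 were called at day 0 by limma or limma-voom (8 had an unadjusted p under 0.05 in limma), 7 were higher and 1 lower at day 2 (Klf2, Esrrb and Zfp42 with the largest differences upward, Pou5f1 lower), and 10 were higher and 1 lower at day 4, with Sox2 at 235 ± 25.01 in WT and 4293 ± 198 in KO and Tdgf1, the most abundant over all libraries, lower; limma-voom called 7 higher and 1 lower at day 2 and 10 and 2 at day 4. With KO-1 alone Pou5f1 was not called at day 2 (log2 fold change −0.58). Their sum was 30907 to 34528 in WT and 38017 to 46763 in KO at day 2 and 18878 to 19466 and 29464 to 31567 at day 4.

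Trophoblast, the extraembryonic epithelium, expresses the same keratins. Of 12 trophoblast markers measured 0 were called at day 0 and day 2 in limma (6 and 4 had an unadjusted p under 0.05; limma-voom called 1 higher and 2 lower at day 0 and 1 lower at day 2), and 3 were lower at day 4 (limma-voom called 2 higher and 7 lower): Cdx2 (1098 ± 20.3 normalized counts in WT and 204 ± 65.4 in KO), Hand1 (264 ± 2.96 and 23.1 ± 12.4) and Tead4 (413 ± 46.9 and 77.9 ± 4.05), the last the most abundant of the list over all libraries. The sum was 866 to 882 in WT and 809.6 to 883 in KO at day 0, 391 to 393 and 239 to 303 at day 2, and 2244 to 2246 and 562 to 918 at day 4. Elf5, a defining trophoblast factor, was at 3 counts or fewer in every WT library of day 0 and day 2 and in every KO library of day 2 and day 4, and Prl2c2 in every library of day 4. Cdx2 and Hand1 are also expressed in early mesoderm.

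Extraembryonic endoderm markers (18 measured, most abundant Sparc) had in limma 1 gene higher at each day (Rhox5) and 0, 1 (Dab2) and 4 lower, and in limma-voom 2, 2 and 3 higher and 5, 5 and 8 lower; at day 0, 6 were lower at an unadjusted p under 0.05. Those lower at day 4 were Gata4 (700.2 ± 41.1 in WT and 35.2 ± 10.004 in KO at day 4), Gata6, Pdgfra and Sparc. The study counts Gata4 among meso-endoderm factors and Gata6 among heart factors, so neither marks extraembryonic endoderm alone. The 18 markers summed to 6747 to 6772 in WT and 6462 to 6976 in KO at day 0. The sums were 4708 to 5161 and 4377 to 4681 at day 2, and 12677 to 12753 and 4814 to 7209 at day 4. Hnf4a was at 3 counts or fewer in both WT libraries of day 4, and Afp and Ttr had 0 counts in WT day 4 replicate 2. Neuroectoderm markers (11 measured, most abundant Zic2) had 2 genes higher at each day (Zic2 and Tubb3 at day 0, Tubb3 and Sox1 later) and 0, 1 (Pou3f1) and 0 lower (0, 2 and 0 with limma-voom; 2 each at day 0 and day 4 were lower with an unadjusted p under 0.05), with sums of 2060.2 to 2187 and 5304 to 5869.9 at day 0, 10078 to 10808 and 5893 to 6284 at day 2, and 4793 to 5295 and 6069.8 to 6460.4 at day 4. Sox1 had 598 ± 100.3 in KO at day 4 and at most 6.04 in WT at that day. Of 9 squamous epithelium markers, Sfn, which encodes 14-3-3 sigma and is the most abundant, was the only call at any day, lower at day 4 (13325 ± 435 and 1843 ± 168), while Krt5, the keratin of stratified epithelium, was at 3 counts or fewer in every KO library of each day and in WT at day 2. Of the 9, 4 and 5 had an unadjusted p under 0.05 in limma at day 0 and day 2, and limma-voom called 1 higher and 1 lower and 0 higher and 3 lower, and 1 higher and 4 lower at day 4. Their sums were 547 to 636 and 711 to 931 at day 0, 695 to 808 and 412 to 445 at day 2, and 13437 to 14216 and 1867 to 2321 at day 4.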

How the data were processed

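RNA-seq libraries of E14 mESCs, 18 in all, were grouped by line and day from the labels and matched to the columns of 1 expression table. Per the methods of the study, the authors trimmed reads with Trim Galore 0.6.7, aligned them to mm39 with STAR 2.7.11a, counted fragments on exons with featureCounts 2.0.6 without duplicates, and deposited DESeq2 1.42.0 VST values on a log2 scale, after removing genes with a mean count under 1. Inverting the VST from its floor of 8.36 gave whole counts (within 0.05 of a count) for 100% of the values. Counts on genes were 9309874 to 23921193 per library, which limits genes of few counts most. Of low counts, 72.5% to 77.5% were even; why is not known. Low values are drawn together on the VST scale.

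Main tests used limma 3.58.1 in R 4.3.3 with trend = TRUE on the VST scale, in 1 fit of 6 groups of genotype and day with KO-1 and KO-2 pooled, and Benjamini-Hochberg adjustment over 20703 genes. A call needed an adjusted p below 0.01 together with a log2 fold change beyond 0.58 in either direction; the cut-offs are those of the study, which set them on fold changes from a count model, and on the VST scale they are stricter for genes with few counts. Clones were compared in a fit of 9 groups. limma-voom was run on the recovered counts beside it, and on simulated data both fits were tested before use. Other alternatives were each day alone, each clone alone or apart, a replicate block, a filter, quantile normalization, centring, no trend, log2(normalized count + 1), other thresholds and each library left out; counts thinned to 1 depth were added after the data were seen. Exon lengths, chromosomes and neighbours came from GENCODE M21 on GRCm38, and promoters from RefSeq on GRCm38.p6. Figures used matplotlib 3.10.9.

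The 10 genes and the lists were chosen with earlier results of these data known. Genes named are the 10, Nsd1, up to 3 per list and direction with the largest called change on the VST scale, the most abundant of each list, and the 5 most like Krt8 and Cldn6. Cldn9, Krt8-ps and markers at 3 counts or fewer (the floor) were added after their values were seen. The values of 1 gene of the lists are not reported here.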

Additional observations from a re-analysis of the deposited data

Results flagged for a closer look

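In 2 groups of KO libraries, Cldn4 had a library far from the others. Dixon's criterion (critical value 0.829) was applied on the VST scale to 26 groups of 4 KO libraries, of which chance marks about 1 in 20. Krt8, and Cldn6 at day 2, were left out, since these values chose them. Cldn4 at day 0 reached 0.842, with KO-1 replicate 1 at 1098 normalized counts below 1410 to 1475 in the others. That is just past the critical value, and the same ratio of the printed normalized counts falls just under it. Cldn4 at day 2 reached 0.959, with KO-2 replicate 2 at 510 normalized counts below 608 to 612.

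The change from day 0 to day 4 differed between KO and WT, by the interaction contrast of limma, for Krt19 (−2.93), Krt18 (−1.64), Cldn4 (−1.56), Cldn7 (−0.97), Cldn6 (−0.90) and Krt7 (−0.63, each on the log2 scale). With limma-voom the difference of Cldn7 (adjusted p = 0.0141), Krt7 (0.0251) and Cldn6 (0.0559) missed the threshold. In limma Cldn6 also missed it without either WT library of day 0 or of day 4 (adjusted p of 0.0177 to 0.0227), and Krt7 without WT day 0 replicate 2 (log2 difference −0.58). In normalized counts the WT mean of Krt19 at day 4 was 22.2-fold that of day 0 and the KO mean 2.35-fold, those of Krt18 27.01-fold and 9.06-fold, those of Cldn7 6.81-fold and 2.86-fold, and those of Cldn6 4.54-fold and 2.48-fold. The mean of Cldn4 went up 2.51-fold in WT and stood at 59.2% of its day 0 level in KO.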

How the results depend on the processing

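Counts here are over all 10 genes, Krt8 and Cldn6 included as a description. In the fit with a replicate block, the genes called lower in KO numbered 1, 8 and 7 at day 0, 2 and 4. No count of calls among the 10 genes moved. Differences between replicate 1 and 2 had a mean correlation of −0.048 over 36 pairs of groups (−0.62 to 0.64, 13 over 0.1). Correlations of both signs show no pairing by replicate number common to all groups, and structure shared by some groups was not tested. Over all alternatives, 20 counts moved by more than 1.5 times and 28 log2 fold changes of the 10 genes turned sign; none of the 28 was a call.

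Genes called in KO versus WT at day 0 numbered 1, but 2 with KO-1 alone and with quantile normalization, 4 with limma-voom, log2(normalized count + 1) and thinned counts, and 5 at an adjusted p under 0.05 with no fold threshold. Among all 20703 genes, 359 were higher and 182 lower in the main fit. KO-1 alone gave 399 and 200 and quantile normalization 317 and 211. limma-voom gave 1331 and 1421, log2(normalized count + 1) 1549 and 1118 and thinned counts 1303 and 1315. With no fold threshold 3172 and 2977 were called. For WT day 2 against day 0, that last setting gave 8 genes (6 higher and 2 lower; all genes 4247 and 4152). It gave 9 for WT day 4 against day 2 (7 and 2, all genes 4252 and 4503). For KO day 2 against day 0 it gave 2 (0 and 2, all genes 3474 and 3916). For KO day 4 against day 2 it gave 8 (8 and 0, all genes 2582 and 2318). Nothing is read from these counts beside such shares. KO day 2 against day 0 also gave 2 with KO-1 alone (all genes 278 higher and 403 lower) and with log2(normalized count + 1) (1529 and 1783). KO day 4 against day 2 gave 5 with limma-voom (1157 and 983). The interaction gave 4 genes, in place of 7, with limma-voom, log2(normalized count + 1) and thinned counts. Among all genes these called 1427 higher and 1658 lower, 1516 and 1598, and 1260 and 1435, in place of 581 and 854. Between clones, limma-voom gave 1 gene at day 0 and 3 at day 4, against 0.159% and 2.23% of all genes. Leaving out 1 library gave 0 to 1 for the clones at day 2, 2 to 3 for KO day 4 against day 2, 7 to 8 at day 2 and day 4, 5 to 6 for WT day 2 against day 0 and 5 to 7 for the interaction. The cause of these shifts was not tested, except that log2 fold changes of genes with few counts are smaller on the VST scale by its construction.

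Values that turned sign with KO-1 alone were Ocln at day 0 (0.070), Tjp1 at day 2 (−0.032), and Krt7 (−0.090) and Krt8 (0.038) for KO day 2 against day 0. With KO-2 alone they were Krt19 (0.048) and Cldn6 (−0.064) for KO day 2 against day 0, and Ocln (−0.045) and Krt7 (−0.045) for KO day 4 against day 2. Krt19 in KO day 2 against day 0 was 0.024 with quantile normalization and 0.014 with centring, Cldn6 in WT day 4 against day 2 was −0.037 with quantile normalization, and Tjp1 in WT day 2 against day 0 was −0.016 with centring. Krt7 in KO day 2 against day 0 was −0.16 with limma-voom and with thinned counts and −0.13 with log2(normalized count + 1). With 1 library left out, ranges that cross 0 were −0.00026 to 0.12 (Cldn3) and −0.070 to 0.075 (Tjp1) for WT day 2 against day 0, −0.017 to 0.072 (Cldn6) for WT day 4 against day 2, −0.045 to 0.056 (Krt7), −0.045 to 0.030 (Krt19) and −0.17 to 5.5e-05 (Krt8) for KO day 2 against day 0, −0.0029 to 0.098 (Krt7) for KO day 4 against day 2 and −0.098 to 0.0050 (Ocln) for KO versus WT at day 0.

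Among all genes, 359 higher and 182 lower at day 0, 831 and 490 at day 2 and 760 and 809 at day 4 became 1331 and 1421, 2136 and 2813, and 2266 and 2691 with limma-voom, and 1007 and 355 at day 2 with centring. Few counts limit genes such as Krt7 and Cldn3 most. Their lowest counts were not in the shallowest library, WT day 2 replicate 1 (9309874 counts), where they had 78 and 102. Krt7 had 4 counts in KO-1 day 2 replicate 1, and Cldn3 had 11 in KO-2 day 2 replicate 2.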
